A study of Mus musculus with 8 samples.

Results

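Potassium channel subunits were described in the hippocampus of mice in which Sumo2 was targeted. They were taken as the rows of the authors' deposited comparison whose gene name begins with Kcn, further lower-case letters and a number, which gave 83 of 17171 genes. The conditional knockout genotype, labelled SUMO2-cKO, carried 2 loxP-flanked (f/f) Sumo2 alleles and Emx1-Cre, and the control carried the same f/f alleles without the Cre. Both groups were C57BL/6 mice of 2 months with 4 hippocampal RNA samples each, made into stranded mRNA libraries. Cre cuts out DNA that loxP sites flank. Emx1-Cre works in the dorsal forebrain lineage, which gives rise to excitatory neurons and to glia, so that other cells of the hippocampus, such as most interneurons, microglia and vessel cells, keep the floxed alleles. Whether each sample is a separate animal is not stated in the labels, so the spread behind the p-values may be technical. Values per sample were not analysed here, so no sample-level spread or overlap of the groups can be shown, and each gene is given by its log2 fold change of SUMO2-cKO over control with its standard error (SE). The tissue label could for the same reason not be checked against marker levels. The authors' deposited table gives Sumo2 a log2 fold change of 0.42 (SE 0.252, adjusted p = 0.761), so the targeted gene, which was not lower, does not check the labels, and every direction below is that of the group labelled SUMO2-cKO.

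Potassium channels let potassium leave or enter the cell and so set the resting potential, the shape of the action potential and the firing rate of neurons. Voltage-gated channels (Kv) open on depolarisation and are built from pore-forming subunits with auxiliary subunits around them. Inward rectifiers (Kir) and two-pore channels carry current near rest, and calcium-activated channels open after calcium entry. SUMO proteins, of which Sumo2 encodes one, are attached to other proteins, and several potassium channel proteins have been reported as SUMO targets. That attachment is not seen in RNA, and the values below are of transcripts only.

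Of the 83 members, 49 belonged to the voltage-gated family, 13 to the inward rectifiers, 10 to the two-pore channels and 11 to the calcium-activated family, which here takes in the related sodium-activated Kcnt genes and Kcnu1. The authors flagged all 83 as coding, and the rule matched no RNA gene. The 83 rows carry 82 symbols, since Kcnb2 has 2 identifiers. GENCODE M21 lists 93 coding genes under the rule, of which 82 matched a row by identifier, and Kcna7, Kcna10, Kcne1, Kcnj1, Kcnj15, Kcnk7, Kcnk15, Kcnk16, Kcnk18, Kcnmb3 and Kcnv2 were not analysed here. The members lie on 19 chromosomes.

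In the authors' deposited table, 3 members passed an adjusted p of 0.05, 1 higher (Kcns1) and 2 lower (Kcns2 and Kcnh2), or 3.61% of the members, against 1.5% of all genes (0.967% higher and 0.53% lower). All 3 are voltage-gated pore-forming subunits. At an unadjusted p under 0.05 the authors' deposited table held 16 members, 6 higher and 10 lower, or 19.3% of the members, against 8.37% of all genes (4.2% higher and 4.17% lower). Of these 16 genes, 14 were voltage-gated (28.6% of that family), 1 an inward rectifier (7.69%) and 1 a two-pore channel (10%), and none was calcium-activated. These shares were not tested against each other or against all genes. The members did not move one way: 39 of 83 had a positive log2 fold change, and the median was 0.00 in the authors' deposited table, as over all genes. Changes were small, with a fold of 1.5 or more for 2 members, Kcns1 and the imprecise Kcne3.

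**Figure D1:**
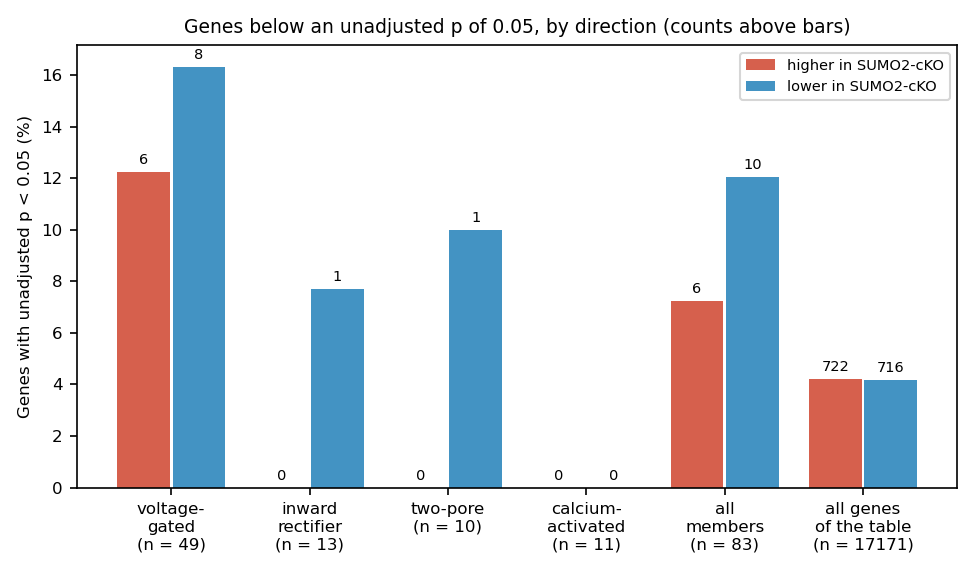
Percent of genes with an unadjusted p under 0.05 (vertical axis) that were higher (red) or lower (blue) in the group labelled SUMO2-cKO, for each potassium channel family, all members and all genes of the authors' deposited table, with the number of genes above each bar. The voltage-gated family held 6 higher and 8 lower genes of 49, and the calcium-activated family none of 11.

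The 3 called genes came from 2 subfamilies, the silent Kv and the erg subunits. Kcns1 and Kcns2 encode silent Kv subunits, which form no working channel alone but join Kv2 subunits such as Kcnb2 and alter their gating. Kcnh2 encodes an erg channel, which opens again as the cell repolarises and damps firing, and is best known as the cardiac channel of inherited long QT syndrome in humans. The promoter windows of the called genes, from 250 bases before to 50 bases after the RefSeq start on GRCm38.p6, are shown for Kcns1 (chr2:164171064-164171363, minus strand) and Kcnh2 (chr5:24329542-24329841, minus strand), 5′ to 3′ on the strand of the gene, because these genes differed in opposite directions. No window is shown for Kcns2. Capitals mark the GC box GGGCGG, or CCGCCC where it lies on the other strand.
Kcns1: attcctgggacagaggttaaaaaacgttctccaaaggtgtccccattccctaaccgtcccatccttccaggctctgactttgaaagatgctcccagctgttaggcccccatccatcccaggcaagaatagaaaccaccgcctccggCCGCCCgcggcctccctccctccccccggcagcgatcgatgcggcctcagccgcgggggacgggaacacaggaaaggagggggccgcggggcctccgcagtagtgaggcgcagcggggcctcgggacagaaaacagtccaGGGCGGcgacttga
Kcnh2: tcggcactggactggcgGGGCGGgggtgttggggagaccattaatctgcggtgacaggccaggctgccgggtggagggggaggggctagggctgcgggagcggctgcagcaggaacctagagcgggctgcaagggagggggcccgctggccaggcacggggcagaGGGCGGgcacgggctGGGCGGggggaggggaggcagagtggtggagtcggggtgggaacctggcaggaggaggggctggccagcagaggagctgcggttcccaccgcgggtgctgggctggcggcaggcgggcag
The Kcns1 window had 22 CpG dinucleotides and 2 GC boxes, and the Kcnh2 window 19 and 3. At least 1 GC box was found in 35.7% of all 32851 RefSeq windows of this length and in 51.2% of the 84 windows of the 59 members with an entry. The member windows were also richer in G and C, with a median of 59% against 52.7% over all windows. Their median CpG count was 9.5, against 7. The Kcnh2 window lies 22.0 kb inside the gene as GENCODE M21 draws it, at the start of a shorter transcript. RNA from the different starts of Kcnh2 cannot be told apart in gene-level values.

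Among the silent subunits Kcns1 rose and Kcns2 fell. Kcns1 (ENSMUSG00000040164, GRCm38 chromosome 2, 164163619 to 164171113) had a log2 fold change of 0.68 in the authors' deposited table (SE 0.130, 95% interval 0.42 to 0.93), which is 1.60-fold higher (adjusted p = 5.49e-05). Kcns2 (ENSMUSG00000050963, chromosome 15, 34837355 to 34843407) stood at -0.26 in the authors' deposited table (SE 0.0647, interval -0.39 to -0.14), or 83.3% of the control level (adjusted p = 0.00591). The intervals of the pair lie on opposite sides of 0. The third member of that group, Kcns3, had -0.10 in the authors' deposited table (SE 0.110, adjusted p = 0.9996). No 50-base window of the coding transcripts of Kcns1 or Kcns2 occurs in a transcript of another gene, and neither overlaps an annotated gene on the opposite strand.

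The other silent subunits, and Kcnb2, a Kv2 subunit they join, did not pass over all genes. Kcnv1, whose product also silences Kv2 channels, was at 0.26 (SE 0.103, unadjusted p = 0.0113, adjusted p = 0.279) and Kcng2 at -0.11 (SE 0.0550, unadjusted p = 0.0407, adjusted p = 0.543), per the authors' deposited table. Kcng1, Kcng3, Kcng4 and Kcnf1 had values of 0.03 to 0.15 by the authors' deposited table. Of 9 silent subunits, 6 had a positive value and 2 were called, 1 in each direction. Kcnb2 stood at -0.16 (SE 0.129) under the identifier ENSMUSG00000092083 and at -0.13 (SE 0.186) under ENSMUSG00000090498, which is not in GENCODE M21, in the authors' deposited table. Both intervals include 0.

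The Kcnh genes encode the eag, erg and elk channels, and 5 of the 8 had an unadjusted p under 0.05 in the authors' deposited table, against 8.37% of all genes. The group was singled out after its values were seen. Kcnh2 (ENSMUSG00000038319, chromosome 5, 24319589 to 24351604) fell to 82.8% of the control level, a log2 fold change of -0.27 in the authors' deposited table (SE 0.0796, interval -0.43 to -0.12, adjusted p = 0.0453). A second erg gene, Kcnh7, was at -0.38 (SE 0.124, interval -0.62 to -0.14), just outside the threshold of 0.05 and inside one of 0.1 (adjusted p = 0.0999), per the authors' deposited table. The third, Kcnh6, was at 0.16 (SE 0.257), per the authors' deposited table, with an interval from -0.35 to 0.66. The elk genes Kcnh3 and Kcnh4, whose channels open at voltages near rest, had positive values of 0.15 (SE 0.0474, adjusted p = 0.102) and 0.50 (SE 0.189, adjusted p = 0.229), per the authors' deposited table. Kcnh8, the other elk gene, was too imprecise to place, at -0.16 (SE 0.421), per the authors' deposited table. Of the eag genes, Kcnh5 had -0.38 (SE 0.165, unadjusted p = 0.0214, adjusted p = 0.402) and Kcnh1 -0.06 (SE 0.0650), per the authors' deposited table. Apart from Kcnh2, none of these 8 genes passed over all genes. Kcnh1, Kcnh2, Kcnh3 and Kcnh7 overlap annotated genes on the opposite strand (Hhat, Gm15589, Mcrs1, and Gca with Gm13569, in that order). The libraries were stranded, but no source used here gives the strand setting of the counting. Whether reads of such pairs were told apart is therefore not known. Overlaps were taken over whole gene spans, and shared exons were not checked.

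**Figure D2:**
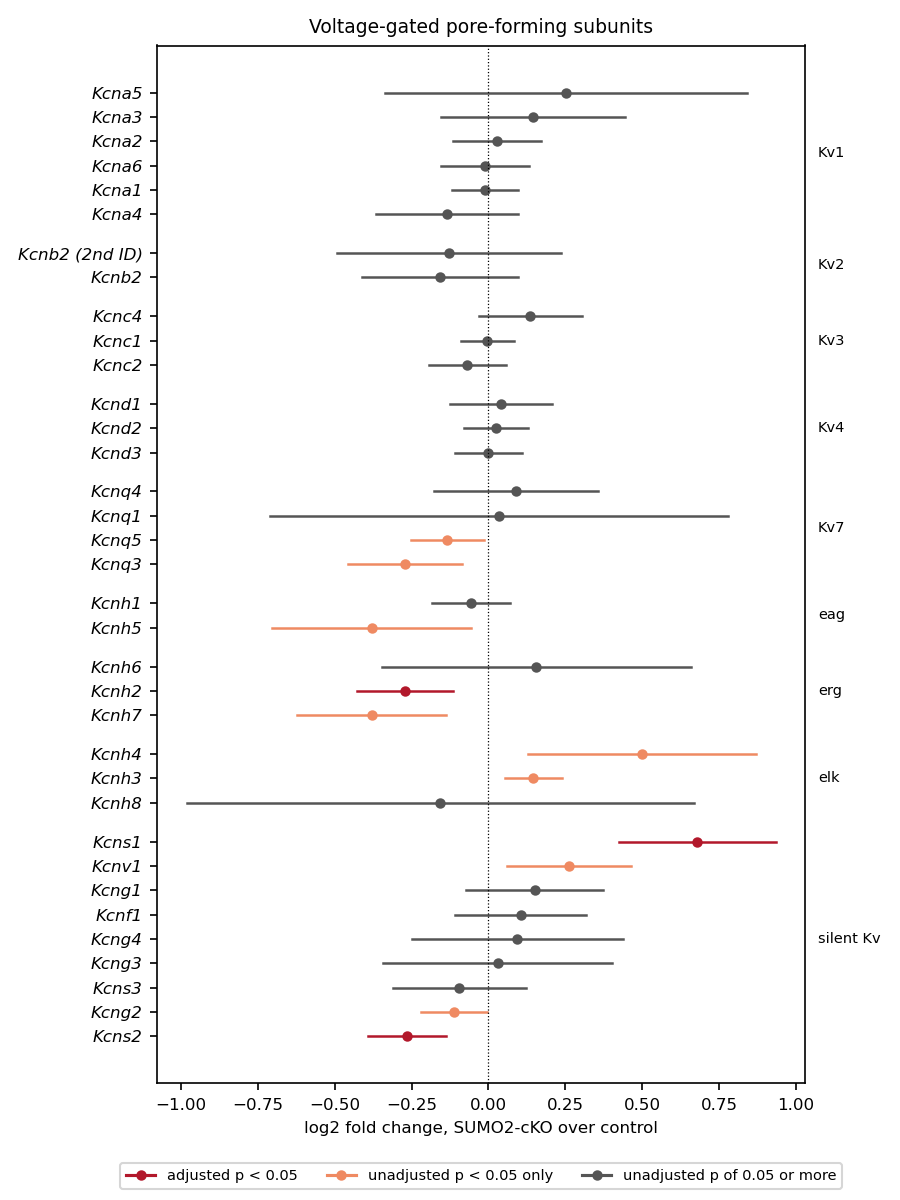
Log2 fold change of SUMO2-cKO over control (horizontal axis, points) with its 95% interval (lines) for 35 of the 38 voltage-gated pore-forming rows, grouped by subfamily, with the second identifier of Kcnb2 marked 2nd ID. Kcns1 at 0.68, Kcns2 at -0.26 and Kcnh2 at -0.27 are the called genes, in red, and most Kv1, Kv3 and Kv4 genes lie close to 0.

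The Kv7 genes encode the M-current, which is closed by muscarinic receptors and restrains repetitive firing. Kcnq3, a main neuronal member, stood at -0.27 in the authors' deposited table (SE 0.0945, interval -0.46 to -0.09, unadjusted p = 0.00417, adjusted p = 0.153). Kcnq5, a further neuronal member, stood at -0.13 (SE 0.0603, unadjusted p = 0.0270, adjusted p = 0.452), per the authors' deposited table. None of the 5 Kv7 genes was called, against 1.5% of all genes.

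Of the Kv1, Kv3 and Kv4 genes named here, Kcna1, Kcna2, Kcnc1 and Kcnd2 had values near 0. The axonal Kv1 subunits Kcna1 and Kcna2 were at -0.01 (SE 0.0548) and 0.03 (SE 0.0734), and Kcna4 at -0.13 (SE 0.118), per the authors' deposited table. Kcnc1, a Kv3 subunit that lets fast-spiking cells fire at high rates, stood at 0.00 (SE 0.0444), per the authors' deposited table. Kcnd2, the Kv4 subunit of the dendritic A-type current of CA1 pyramidal cells, was at 0.02 in the authors' deposited table (SE 0.0531, interval -0.08 to 0.13). None of the 6 Kv1, 4 Kv3 and 3 Kv4 genes had an unadjusted p under 0.05, where 8.37% of all genes had one. For Kcna1, Kcnc1 and Kcnd2 the intervals exclude changes beyond 0.13 on the log2 scale in either direction, while for Kcna5 (SE 0.300) they do not.

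The auxiliary subunits of voltage-gated channels held no called gene among 11, against 1.5% of all genes. Kv4 channels are bound by the KChIP proteins, calcium sensors that raise their surface expression. Of these, Kcnip4 was at -0.18 (SE 0.0664, unadjusted p = 0.00593, adjusted p = 0.191) and Kcnip3, also known as the repressor DREAM, at 0.12 (SE 0.0512, unadjusted p = 0.0222, adjusted p = 0.409), per the authors' deposited table. Kcnip2 stood at 0.00 (SE 0.0456) and Kcnip1 at -0.03 (SE 0.101), per the authors' deposited table. The Kv1 beta subunits Kcnab1 and Kcnab2 were at 0.03 (SE 0.0405) and 0.04 (SE 0.0465), and Kcnab3 at 0.17 (SE 0.0787, unadjusted p = 0.0351, adjusted p = 0.504), per the authors' deposited table. The 4 Kcne genes, which encode small single-span partners, had SE values from 0.167 to 0.620, and none reached an unadjusted p under 0.05.

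Inward rectifiers had no called gene among 13, against 1.5% of all genes. They had 6 positive values and a median of -0.05 in the authors' deposited table. That median was 0.04 over the 10 genes with an SE of at most 0.25. Kcnj2, a strong rectifier that holds the resting potential, was the only inward rectifier with an unadjusted p under 0.05, at -0.30 (SE 0.111, unadjusted p = 0.00724, adjusted p = 0.212), per the authors' deposited table. The GIRK subunits Kcnj3, Kcnj6 and Kcnj9, which are opened by G protein-coupled receptors, stood at -0.11 (SE 0.0678), -0.05 (SE 0.0608) and 0.00 (SE 0.0508), per the authors' deposited table. Kcnj10, the channel by which astrocytes and oligodendrocytes take up potassium, was at -0.07 (SE 0.0642, interval -0.20 to 0.05, adjusted p = 0.982), per the authors' deposited table. The pore of the neuronal ATP-sensitive channel, Kcnj11, stood at 0.12 (SE 0.0810, adjusted p = 0.876) and its vascular counterpart Kcnj8 at 0.07 (SE 0.216), per the authors' deposited table. Of the Kcnj14 windows of 50 bases 30.8% also occur in Gm5522, so its value of -0.39 (SE 0.305), per the authors' deposited table is uncertain.

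Two-pore channels carry the background leak current and had no called gene among 10, against 1.5% of all genes. Kcnk13, a leak channel known from microglia, was at -0.44 in the authors' deposited table (SE 0.155, interval -0.74 to -0.14, unadjusted p = 0.00445, adjusted p = 0.161). Its closest relative Kcnk12 stood at -0.09 (SE 0.103), per the authors' deposited table. The mechanosensitive Kcnk2 was at 0.01 (SE 0.0599) and Kcnk4 at 0.18 (SE 0.108, unadjusted p = 0.0910), per the authors' deposited table. Kcnk1, expressed in astrocytes and neurons, stood at -0.04 (SE 0.0704), Kcnk3 at -0.01 (SE 0.106) and Kcnk9 at 0.14 (SE 0.134), per the authors' deposited table. Of the 10 genes, 3 had a positive value, and the median was -0.06 in the authors' deposited table.

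Calcium-activated channels had no member with an unadjusted p under 0.05 among 11, where 8.37% of all genes had one. Kcnma1, the pore of the large-conductance BK channel, stood at 0.05 in the authors' deposited table (SE 0.0579, interval -0.06 to 0.16, adjusted p = 0.9996). Its neuronal beta subunit Kcnmb4 was at 0.01 (SE 0.0614), Kcnmb2 at 0.01 (SE 0.156) and the smooth muscle subunit Kcnmb1 at -0.25 (SE 0.258), per the authors' deposited table. The SK channels Kcnn1, Kcnn2 and Kcnn3, which open on calcium that enters during spikes, stood at 0.02 (SE 0.0740), -0.01 (SE 0.106) and 0.09 (SE 0.129), per the authors' deposited table. Kcnn4 was at 0.35 (SE 0.486), per the authors' deposited table, and its interval from -0.61 to 1.30 leaves its direction unplaced. The sodium-activated Kcnt1 and Kcnt2 were at -0.05 (SE 0.114) and -0.06 (SE 0.0670), per the authors' deposited table.

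**Figure D3:**
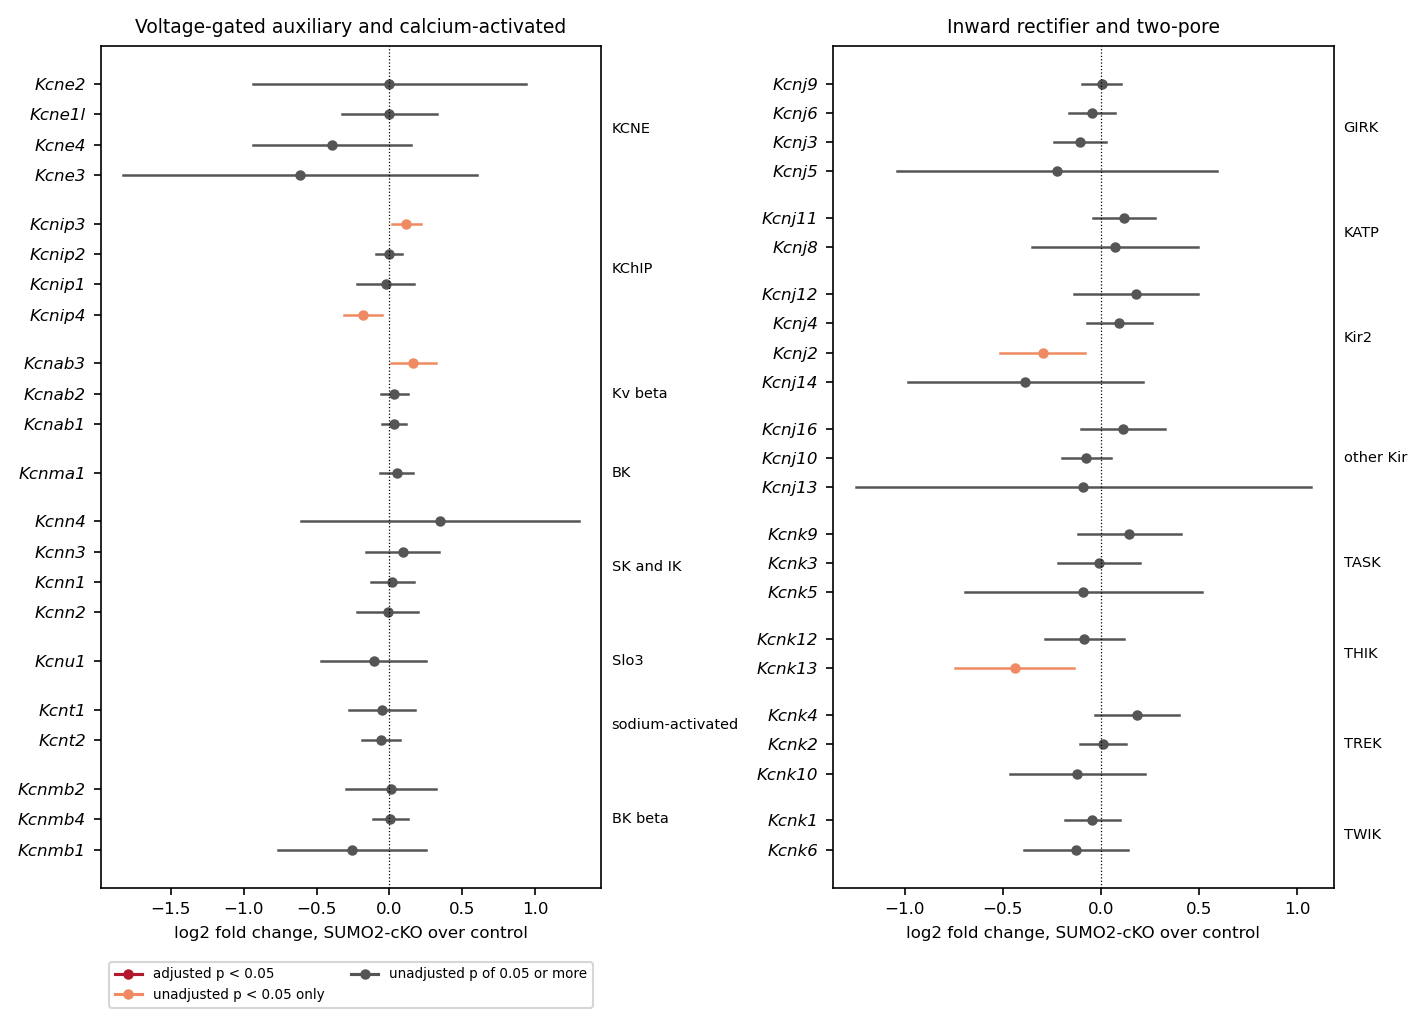
Log2 fold change of SUMO2-cKO over control (horizontal axes, points) with 95% intervals (lines) for the auxiliary and calcium-activated subunits on the left and the inward rectifier and two-pore subunits on the right, grouped by subfamily. No gene here was called, and Kcnip4, Kcnip3, Kcnab3, Kcnj2 and Kcnk13, in orange, had an unadjusted p under 0.05.

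A list of 30 partner genes was set beside the members, of which 28 had a row and 1 was called, or 3.57%, against 1.5% of all genes. Abcc8, the sulphonylurea receptor that surrounds Kcnj11 in the ATP-sensitive channel, rose by 0.33 on the log2 scale in the authors' deposited table (SE 0.0690, interval 0.19 to 0.46, 1.25-fold, adjusted p = 0.000526). Its vascular counterpart Abcc9 was at 0.10 (SE 0.190, adjusted p = 0.9996), per the authors' deposited table. The 4 genes of these channels, Abcc8, Abcc9, Kcnj8 and Kcnj11, all had positive values, and Abcc8 alone passed. Cntnap2 and Cntn2, which hold Kv1 channels beside the node of Ranvier, were at -0.18 (SE 0.0589, adjusted p = 0.108) and -0.19 (SE 0.0887, adjusted p = 0.490), per the authors' deposited table. The Kv2 partner Amigo1 stood at 0.07 (SE 0.0451), the Kv4 partner Dpp6 at 0.00 (SE 0.0507) and Ank3, which anchors Kv7 at the axon initial segment, at -0.03 (SE 0.0448), per the authors' deposited table. The related cation channel Hcn2 was at -0.03 (SE 0.0528), per the authors' deposited table. The median of the 28 partners was -0.02, with 10 positive, against 0.00 over all genes.

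Gene length was set beside the values, after they were seen and with no test. Both called lower genes were under 100 kb, Kcns2 at 6.05 kb and Kcnh2 at 32.0 kb, and 0 of the 23 members of 100 kb or more were called, against 2.49% of all genes of that length, per the authors' deposited table. The 6 members with an unadjusted p under 0.05 and a positive value spanned 6.79 to 65.6 kb in GENCODE M21, with a median of 13.3 kb. The 10 with a negative value spanned 6.05 to 1135 kb, with a median of 189 kb, with Kcns2 the shortest of them. Of the 23 members of 100 kb or more, 7 had a positive value, none was higher at an unadjusted p under 0.05 and 5 were lower (Kcnh7, Kcnq3, Kcnip4, Kcnh5 and Kcnq5), which is 21.7%, in the authors' deposited table. Over all 2373 genes of that length 5.18% were higher and 7.92% lower at that threshold, and 45.1% had a positive value. Of the long members, the 14 voltage-gated ones had 3 positive and 11 negative values. The calcium-activated ones had 3 and 2, the inward rectifiers 0 and 2, and the two-pore channels 1 and 1. The median SE was 0.0678 for members of 100 kb or more and 0.109 for the shorter ones. Of the 59 shorter members, 32 had a positive value. At an unadjusted p under 0.05, 6 of the shorter members were higher (10.2%) and 5 lower (8.47%). Over all 14582 shorter genes 4.07% were higher and 3.57% lower. Across the 82 members with a length, Spearman's rho between length and log2 fold change was -0.25, against -0.06 across 16955 genes. This describes genes measured in the same libraries, which are not independent replicates.

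**Figure D4:**
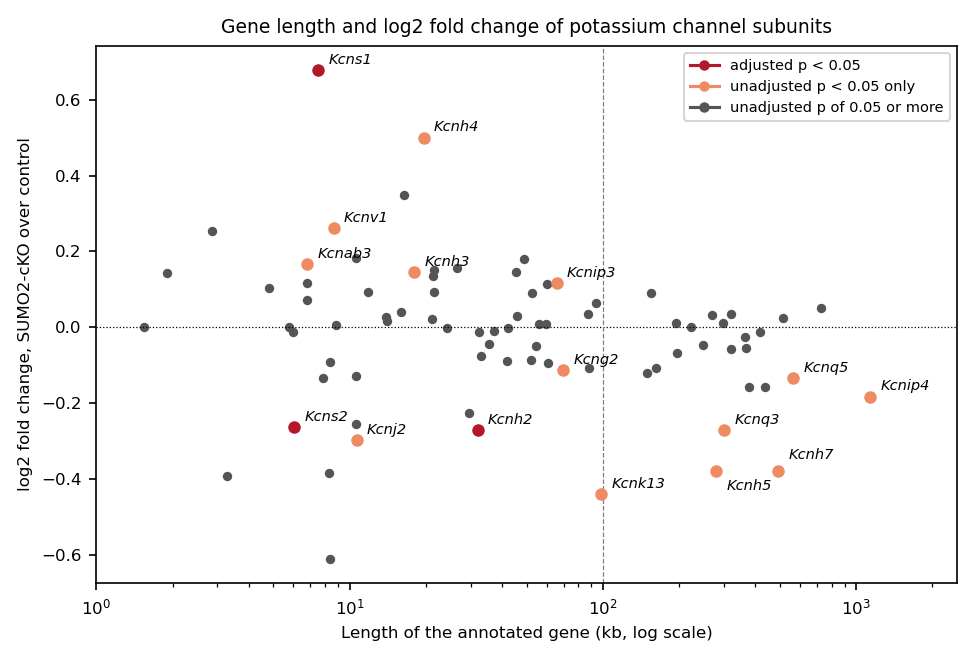
Length of the annotated gene in kb (horizontal log axis) against the log2 fold change of SUMO2-cKO over control (vertical axis) for the 82 members with a GENCODE M21 entry, with the dashed line at 100 kb. To the right of the line all 5 named genes lie below 0, and the 6 named genes above 0 span 6.79 to 65.6 kb.

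Markers of the cell types in the tissue were read beside these values, since in bulk RNA fewer cells of a type and less RNA per cell cannot be told apart. All 12 mature oligodendrocyte markers were negative, with a median log2 fold change of -0.43 and 3 called, Ermn at -0.55, Aspa at -0.50 and Mog at -0.45, in the authors' deposited table. Microglia markers had a median of -0.01 over 8 genes with none called, beside the -0.44 of Kcnk13, in the authors' deposited table. Interneuron markers had a median of -0.08 (2 of 8 positive), astrocyte markers of 0.04 (5 of 8) and endothelial and mural markers of 0.12 (7 of 8), none with a called gene, in the authors' deposited table. Markers of excitatory neurons of the hippocampus had a median of -0.03 (3 of 8 positive) with Bok called at -0.28, and the 8 choroid plexus markers, 2 of them members, a median of -0.21 with none called and no SE at or below 0.25, in the authors' deposited table. The part of these cell types in the potassium channel values was not tested.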

How the data were processed

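Hippocampal RNA of 4 SUMO2-cKO and 4 control samples was compared. Per the submitters' processing notes the tools were DESeq2, HTSeq, STAR, cutadapt and Trim Galore, in no stated order or version. The genome build, annotation, strand setting and any shrinkage of fold changes were not given in the sources used here. For 17171 genes the authors deposited the log2 ratio of knockout to wild type, the Wald statistic (a score in units of the standard error), and the p-value before and after adjustment, per the file headers. The names of 8 further columns of normalized values match no sample label, so those columns were not used, and depth and values per sample were not analysed here.

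From the deposited table, SEs were taken as log2 fold change over statistic, and 95% intervals from a normal distribution (1.96 SE). A gene was called at the authors' adjusted p under 0.05. No test of family, list or length was run. The deposited p-values were recomputed from the statistics to within 2.83e-15 and the adjusted ones to within 9.58e-15. The adjustment was tested on simulated data. Lengths, overlaps and shared 50-base windows came from GENCODE M21 on GRCm38 (16955 identifiers matched, 216 did not), and promoters from RefSeq. Of 82 members with windows, 6 shared more than 1% with other genes, and 37 overlap a gene on the opposite strand.

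The members, lists and comparisons were chosen with earlier results of these data known. Named genes are all called members, the 3 with the smallest p of each family, called partners and a list of hippocampal channels; other genes with an unadjusted p under 0.05, and those given to complete a subfamily or complex, were chosen after their values were seen. Some genes of the lists are not reported here by name but count in the totals. Software was scipy 1.17.1, pandas 2.3.3, numpy 2.4.6 and matplotlib 3.10.9 under Python 3.11.15.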

Additional observations from a re-analysis of the deposited data

How the results depend on the processing

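The 3 called members became 1, Kcns1, with Bonferroni correction (0.46% of all genes), where Kcns2 had an adjusted p of 0.804 and Kcnh2 of 1. This follows from the stricter correction. The same 3 genes were called with p-values adjusted over protein-coding genes or over genes with an SE of at most 0.25, and with a fold of at least 1.2, and Kcnh7 joined them at an adjusted p under 0.1 (2.14% of all genes). Those calls compare with 1.62% of coding genes called over coding genes alone, and with 1.09% of all genes called at that fold. Over genes with an SE of at most 0.25, 259 of 13204 genes were called, a larger share than either of these. The adjusted p of Kcnh2 ranged from 0.0372 to 1 over these settings. At an unadjusted p under 0.01, a threshold chosen after seeing the data, the 16 members became 10, 3 higher and 7 lower, against 3.83% of all genes; with an SE of at most 0.25 they remained 16, of 70, against 9.68% of all genes with such an SE. Family medians moved by less than the median SE of their members in every setting tried, although that of the inward rectifiers was 0.04 with an SE of at most 0.25, against -0.05. Median values of long and short genes moved by less than their median SE with lengths of 50 or 200 kb as the divide, also chosen after seeing the data. For families and lengths alike, that SE is of single genes and is larger in size than the median it was set against. Moves below it therefore do not show that the medians are stable. No paired analysis was possible because no column used here belongs to a single sample. Left unrun for want of sample values were the planned limma fits, with their pseudocounts and filters, and leaving out each replicate. Depth is seen only through the SE: at the table's median SE of 0.0940, 0.184 is the smallest log2 change whose 95% interval excludes 0, and 13 members had an SE above 0.25.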

Other observations

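Genes named as sodium (Scn) or calcium (Cacn) channel subunits were set beside the members. Of the Scn genes 0 of 13 were called, and of the Cacn genes 1 of 24 (4.17%), beside 3.61% of the potassium channel subunits. The called gene was Cacng3, at -0.20 (SE 0.0507) in the authors' deposited table. At an unadjusted p under 0.05 there were 2 (15.4%) and 4 (16.7%), beside 19.3% of the potassium channel subunits and 8.37% of all genes. Both sets were taken by gene name, and whether each gene, Cacng3 included, encodes part of a voltage-gated channel was not checked. The difference between these shares was not tested.

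Within 1 Mb of Kcns1 there were 43 other genes of the table, of which 1 was called, Dbndd2, 315 kb away and at -0.24 (SE 0.0575, adjusted p = 0.00436) by the authors' deposited table, opposite in sign to Kcns1. None of the 10 genes within 1 Mb of Kcns2 and none of the 35 within 1 Mb of Kcnh2 was called in the authors' deposited table, where the smallest adjusted p was 0.247 and 0.654. Cacng3 and Dbndd2 were picked because of their values.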
